A study of Mus musculus with 7 samples.

Results

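The 9 genes described here encode the machinery that makes microRNAs and the partners through which Argonaute proteins silence their targets: Drosha and Dgcr8, Xpo5, Dicer1 with its partners Tarbp2 and Prkra, and the GW182 scaffolds Tnrc6a, Tnrc6b and Tnrc6c. They were chosen by symbol from what is known of the pathway, with earlier results of these data known. Each symbol matched 1 Ensembl gene among the 43629 genes counted, and 9 of 9 passed the filter on low counts that left 18426 genes for testing.

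MicroRNA genes are transcribed as long primary transcripts. In the nucleus the Microprocessor, made of the RNase III enzyme Drosha and the RNA-binding protein Dgcr8, cuts out a hairpin precursor, and the transport receptor Exportin 5, encoded by Xpo5, carries it to the cytoplasm. Dicer, with Tarbp2 or Prkra (PACT) bound to it, cuts the hairpin to a duplex, of which 1 strand is loaded into an Argonaute. The Argonaute then recruits a GW182 protein, which brings in deadenylases that shorten the poly(A) tail of the target mRNA. Mouse embryonic stem (ES) cells that lack Dgcr8 or Dicer can be grown, but they differentiate poorly.

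The study sequenced poly(A) RNA from 7 libraries of E14 mouse ES cells of the 129/Ola strain and of cells derived from them. The group called KO ESC holds 3 libraries of undifferentiated Ago2-knockout ES cells kept in serum with LIF, 1 from a line labelled C4 and 2 from a line labelled 5-3. The group called WT XEN holds 2 libraries, A and B, of wild-type E14 cells treated for 5 days with activin A at 10 ng/mL and all-trans retinoic acid at 0.1 µM, a treatment directed at extra-embryonic endoderm (XEN). The group called KO XEN holds 2 libraries of Ago2-knockout cells after the same treatment, 1 from C4 and 1 from 5-3. Wild-type ES cells were not analysed here, so genotype and differentiation cannot be told apart between WT XEN and KO ESC. The 3 pairwise comparisons also share libraries and are not independent of each other. The labels name neither the knockout allele nor whether a group's libraries stem from different cultures, so p-values measure the spread between these libraries. Within WT XEN and between both 5-3 ES libraries that spread may be technical. In the knockout groups it also includes the difference between lines C4 and 5-3. The main fit had no term for line and took both 5-3 ES libraries as separate replicates.

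The libraries held 13941826 to 48650113 counts, the lowest in KO XEN C4, and each of the 9 genes had between 392 and 20933 counts in every library. The level of a gene is its CPM, the number of its counts per 1000000 counts of the library after TMM scaling. Ago2, the targeted gene, was at 94.4 CPM in KO ESC C4, 9.37 and 9.65 in both KO ESC 5-3 libraries, 394 and 432 in WT XEN, 122 in KO XEN C4 and 9.94 in KO XEN 5-3. The C4 libraries thus held more Ago2 transcript than the 5-3 libraries, by 3.41 ± 0.13 (SE) on the log2 scale (edgeR quasi-likelihood test, Benjamini-Hochberg adjusted p = 0.00494). For the 9 genes, the calls between groups that changed when both C4 libraries were left out are given below. The other pathway genes named are given with C4 included. The summed level of 8 ES cell markers was 5398 to 5678 CPM in KO ESC, 775 to 845 in WT XEN and 66.6 to 75.8 in KO XEN, where Esrrb was below 1 CPM. The sum of 9 extra-embryonic endoderm markers was 168 to 184 CPM in KO ESC, with Sox17 and Foxa2 below 1 CPM, 22759 to 36663 in WT XEN and 1671 to 2442 in KO XEN. For 8 mesenchyme markers it was 29.9 to 30.8 CPM in KO ESC, with Col3a1 and Postn at 0, 779 to 1790.2 in WT XEN and 10162 to 12482 in KO XEN. The sum of 6 neural markers was 84.7 to 108 CPM, 58.1 to 87.7 CPM and 458 to 530.2 CPM in these groups. The sum of 6 blood and endothelial markers, of which Hbb-bt was at 0 in all 3 groups and Ptprc also at 0 in KO XEN, was 84.5 to 109 CPM, 24.0 to 26.5 CPM and 36.3 to 44.4 CPM. Mitochondrial genes took 2.79% to 3.26% of counts in KO ESC, 1.94% and 2.64% for WT XEN, and 0.781% and 0.979% in KO XEN. The libraries labelled KO XEN thus held less endoderm and more mesenchyme marker RNA than WT XEN. The part that the makeup of the cells or the mitochondrial share played in the differences described for the 9 genes was not tested, and in such bulk libraries fewer cells of a type and less RNA per cell cannot be told apart.

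One member is itself a substrate of the machinery. The Dgcr8 mRNA carries microRNA hairpins that the Microprocessor is known to cut, so that the Dgcr8 transcript level is known to depend in part on Drosha and Dgcr8 themselves. The hairpin of miR-1306 lies in a coding exon of Dgcr8, at chr16:18284239-18284317 on the minus strand, and is shown because it sits inside the mRNA measured here. The capitals in the hairpin mark both mature arms.
mmu-mir-1306 hairpin: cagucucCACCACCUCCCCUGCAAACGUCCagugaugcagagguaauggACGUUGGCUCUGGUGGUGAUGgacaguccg
The mature microRNAs of this hairpin, and those of miR-3618 from an exon stretch of Dgcr8 annotated as untranslated, are given with the seed (bases 2 to 8) in capitals. The sequences are from RefSeq on GRCm38.p6, the assembly also called mm10.
mmu-miR-1306-5p: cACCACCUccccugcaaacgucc
mmu-miR-1306-3p: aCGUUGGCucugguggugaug
mmu-miR-3618-5p: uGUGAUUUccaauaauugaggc
mmu-miR-3618-3p: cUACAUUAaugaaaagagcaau
The 4 seeds differ from each other. The gene models of both hairpins had 0 counts in all 7 libraries, which were made from poly(A) RNA, so these data hold no value for the microRNAs.

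Tnrc6b, the scaffold gene that differed most between the differentiated groups, has 2 RefSeq start sites on the plus strand of chromosome 15, at 80711313 and 80798610. The 100 bases upstream of each are shown because the deposited counts are summed over a gene and do not say from which start its transcripts came. No annotated exon lies in either window. Capitals mark a GC box (GGGCGG) in the upstream window and an E-box (CACGTG) in the downstream one.
Tnrc6b, chr15:80711213-80711312, plus strand: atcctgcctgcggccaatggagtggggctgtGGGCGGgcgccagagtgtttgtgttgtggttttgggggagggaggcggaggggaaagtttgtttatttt
Tnrc6b, chr15:80798510-80798609, plus strand: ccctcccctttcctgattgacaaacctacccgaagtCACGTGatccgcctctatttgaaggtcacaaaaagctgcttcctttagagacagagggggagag
Among the 10 RefSeq start sites of the 9 genes, GGGCGG on either strand was found within 250 bases upstream of 6, against 32.7% of 32851 such windows in all. CACGTG was found in 1 of 10 against 6.02%, CCGGAA in 1 of 10 against 12.0%, and TATAAA in 0 of 10 against 12.4%. These matches describe the letters in the windows and are no measure of binding.

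Levels of different genes were ranked as CPM per kilobase of annotated exon, taking all exons of a gene together, so a gene whose transcripts use few of its exons is understated. On this scale Drosha was the highest of the 9 genes in every group, at 60.4 ± 17.8 (SD, n = 3) in KO ESC, 35.3 ± 1.92 (n = 2) in WT XEN, and 47.3 ± 6.71 (n = 2) in KO XEN. Xpo5 followed in every group, at 29.8 ± 2.68 in KO ESC, 18.8 ± 1.6 in WT XEN and 19.3 ± 1.21 for KO XEN, and Tnrc6a was next, at 14 ± 0.547, 15.8 ± 4.12 and 16.5 ± 0.986. In WT XEN the libraries of Xpo5 and Tnrc6a overlapped, and in KO ESC those of Tarbp2 (8.29 to 15.0) spanned those of Tnrc6a (13.4 to 14.4). Prkra was the lowest of the 9 in KO ESC, at 5.37 ± 1.56 CPM per kilobase, but in KO XEN, at 15.9 ± 1.33, only Drosha, Xpo5 and Tnrc6a were above it, and its libraries overlapped those of Tnrc6a. Tnrc6b was the lowest in WT XEN, at 3.64 ± 0.542 CPM per kilobase, below Tnrc6c at 4.7 ± 0.465 with no overlap of libraries, whereas in KO ESC the libraries of Tnrc6b, Tnrc6c and Prkra overlapped. In KO XEN the lowest was Tnrc6c, at 4.57 ± 0.313, and Tnrc6b at 8.41 ± 0.701 overlapped Dgcr8 at 8.63 ± 0.585 and Dicer1 at 8.44 ± 0.127. Dgcr8, Tarbp2 and Dicer1 lay at 12.3 ± 0.655, 12.3 ± 3.52 and 11.6 ± 0.742 in KO ESC, where they overlapped each other.

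**Figure D1:**
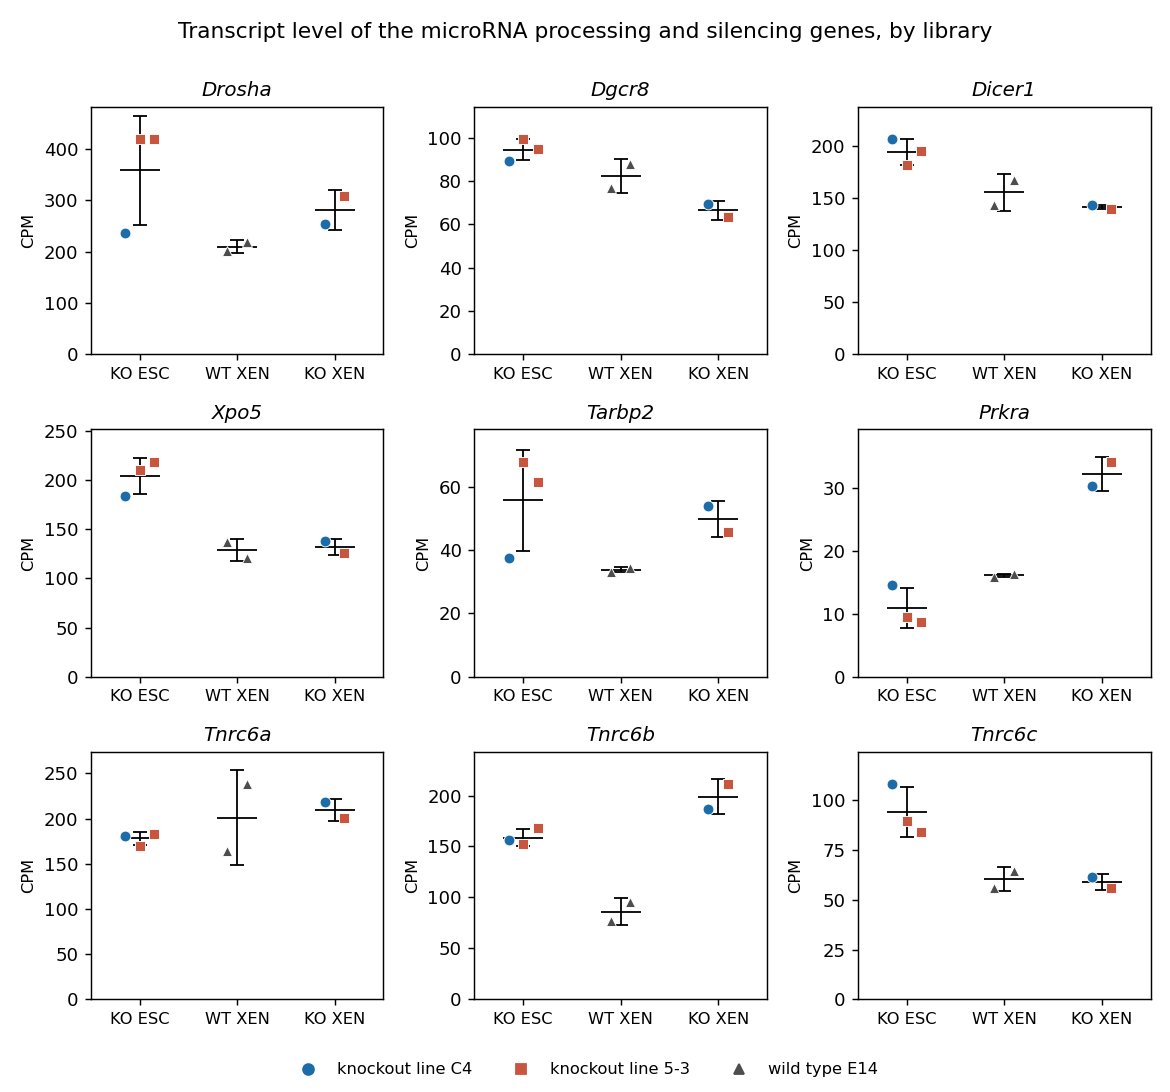
Level of each of the 9 genes in CPM (vertical axes from 0, 1 panel a gene) in the 3 groups, with blue circles for line C4, red squares for line 5-3, grey triangles for wild-type E14, and bars for mean ± SD. Tnrc6b is low in both WT XEN libraries (77.0 and 95.2 CPM), Prkra is high in both KO XEN libraries (30.3 and 34.2 CPM), and KO ESC C4 is farthest from the 5-3 ES libraries, as a ratio, for Drosha, Tarbp2 and Prkra.

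Between the differentiated groups, which differ in Ago2 genotype, Tnrc6b and Prkra were higher in KO XEN than in WT XEN and none of the 9 genes was called lower. Tnrc6b was 2.31-fold and Prkra 2.0-fold higher. A gene was called at an adjusted p below 0.05 over all genes tested (edgeR). The 2 of 9 stand beside 46.2% of all genes called in this comparison, 22.3% higher and 23.9% lower, so the share of members called was below that of all genes. The median log2 fold change was 0.06 over the 9 and 0.0 over all genes tested. The libraries of the groups did not overlap for 5 of the 9 genes, Drosha, Dgcr8, Tarbp2, Prkra and Tnrc6b, against 76.5% of all genes.

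After differentiation of knockout cells, Prkra was higher and Dgcr8, Dicer1, Xpo5 and Tnrc6c were lower in KO XEN than in KO ESC. These 5 of 9 stand beside 69.0% of all genes called, 34.8% higher and 34.3% lower. The median log2 fold change over all 9 was -0.35, against -0.08 over all genes, and the libraries did not overlap for 7 of 9 genes, all but Drosha and Tarbp2, against 81.0% of all genes. In WT XEN against KO ESC, Drosha, Xpo5, Tarbp2, Tnrc6b and Tnrc6c were lower and none was called higher. These 5 of 9 stand beside 62.5% of all genes called, 32.2% higher and 30.3% lower. The median over all 9 was -0.64, against -0.03 over all genes, and the libraries did not overlap for 8 of 9 genes, all but Tnrc6a, against 76.1% of all genes.

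**Figure D2:**
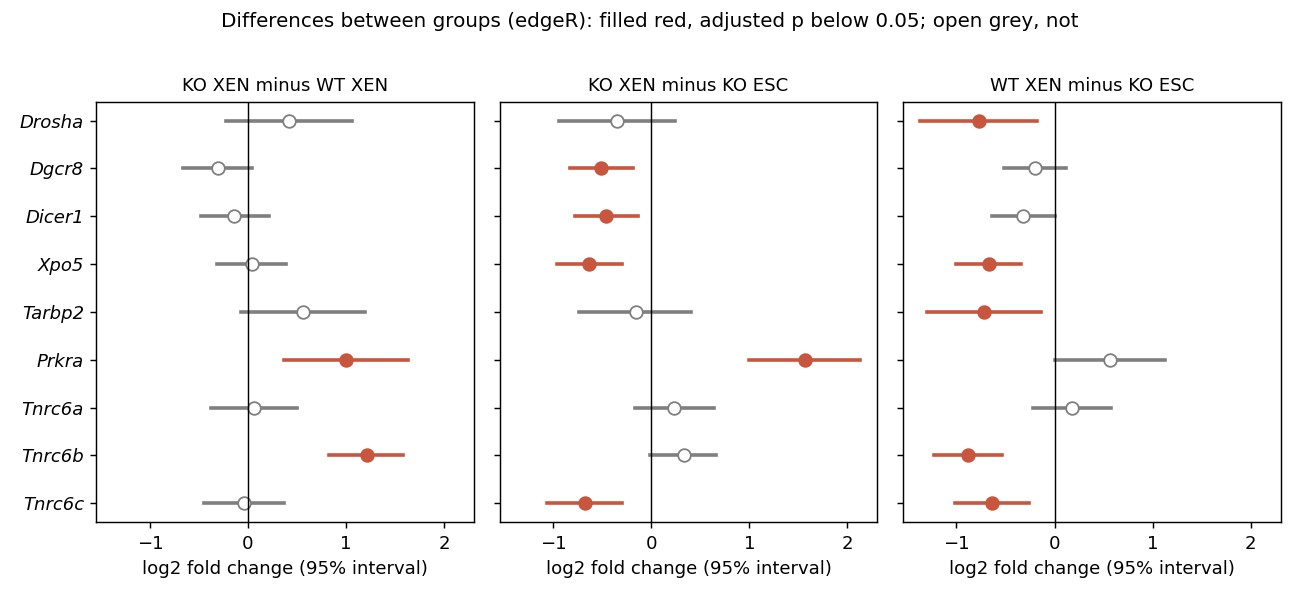
Difference of each of the 9 genes in the 3 comparisons of groups, as log2 fold change (horizontal axis) with its 95% interval from the edgeR fit over all 7 libraries, filled in red where the adjusted p was below 0.05. Tnrc6b and Prkra are the genes called between KO XEN and WT XEN, at 1.21 and 1.0, and Tnrc6a is called in none of the 3.

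Drosha (ENSMUSG00000022191, chr15:12824815-12935291 on mm10, plus strand) encodes the nuclear RNase III enzyme that cuts primary transcripts. It was at 236 CPM in KO ESC C4, 419.6 and 419 in both KO ESC 5-3 libraries, 201 and 218 in WT XEN, 253 in KO XEN C4 and 309 in KO XEN 5-3. The 5-3 ES libraries were the highest, and KO ESC C4 lay below both KO XEN libraries and above both WT XEN libraries. Drosha was 1.71-fold lower in WT XEN than in KO ESC, with a log2 fold change of -0.77 ± 0.26 (SE, edgeR adjusted p = 0.0301). KO XEN did not differ from KO ESC past the threshold (-0.35, 95% interval -0.94 to 0.24, adjusted p = 0.249), nor from WT XEN (0.42, interval -0.22 to 1.06, adjusted p = 0.245), although the KO XEN and WT XEN libraries did not overlap. Without both C4 libraries all 3 differences passed: KO XEN was above WT XEN by 0.56 (edgeR adjusted p = 0.031) and below KO ESC by a log2 change of -0.44 (0.048), and WT XEN was below KO ESC by -1.0 (0.00167). The difference between WT XEN and KO ESC was not called when either 5-3 ES library or either WT XEN library was left out, with edgeR adjusted p of 0.084 to 0.151.

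Dgcr8 (ENSMUSG00000022718, chr16:18253948-18289246, minus strand) encodes the RNA-binding partner of Drosha. It was at 89.4, 99.5 and 95 CPM in KO ESC (C4 first, then both 5-3 libraries), 76.7 and 88.0 in WT XEN, 69.6 in KO XEN C4 and 63.3 in KO XEN 5-3. The 3 groups formed 3 ranges that did not overlap, with KO XEN lowest. KO XEN was 1.42-fold lower than KO ESC (log2 fold change -0.51 ± 0.14, edgeR adjusted p = 0.0113), a call lost without KO XEN 5-3 (0.0638), while the difference from WT XEN was -0.31 (interval -0.66 to 0.04, adjusted p = 0.127). Without KO ESC C4 the difference from WT XEN was called, at -0.38 (edgeR adjusted p = 0.049). Of the exonic bases of Dgcr8, 825 (10.72%) overlap exons of Trmt2a on the opposite strand, and since the strand setting of the counting is not given in the sources used here, reads of the pair cannot be told apart there. Per library, Drosha over Dgcr8 in CPM was 2.64 in KO ESC C4, 4.22 and 4.41 in both KO ESC 5-3 libraries, 2.63 and 2.47 in WT XEN, 3.63 in KO XEN C4 and 4.89 in KO XEN 5-3. KO ESC C4 was thus nearer to WT XEN than to the other knockout libraries in this ratio.

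Xpo5 (ENSMUSG00000067150, chr17:46202782-46243598, plus strand), which encodes the export receptor for precursor hairpins, was at 184 CPM in KO ESC C4, 210.5 and 219 in both KO ESC 5-3 libraries, 137 and 121 in WT XEN, 138 in KO XEN C4 and 126 in KO XEN 5-3. Both differentiated groups lay below all ES libraries and overlapped each other. Xpo5 was 1.55-fold lower in KO XEN than in KO ESC (-0.63 ± 0.14, edgeR adjusted p = 0.00484) and 1.59-fold lower in WT XEN than in KO ESC (-0.67 ± 0.14, edgeR adjusted p = 0.00435). KO XEN and WT XEN differed by 0.04 (interval -0.32 to 0.39, adjusted p = 0.871), a value whose sign changed with the setting. The intron of Xpo5 also hosts miR-693, for which these libraries give no value.

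Dicer1 (ENSMUSG00000041415, chr12:104687742-104751952, minus strand) encodes the cytoplasmic RNase III enzyme that cuts precursor hairpins. It was at 207 CPM in KO ESC C4, 182 and 195 in both KO ESC 5-3 libraries, 143 and 168 in WT XEN, 143 in KO XEN C4 and 139.9 in KO XEN 5-3. Every ES library was above every differentiated library, and WT XEN and KO XEN overlapped. Dicer1 was 1.38-fold lower in KO XEN than in KO ESC (-0.46 ± 0.14, edgeR adjusted p = 0.0175), but not past the threshold without KO XEN C4 (0.0731), without KO XEN 5-3 (0.0556) or without both C4 libraries (0.0803). WT XEN was lower than KO ESC by a log2 change of -0.32 ± 0.14 with an edgeR adjusted p of 0.0718, and KO XEN differed from WT XEN by -0.14 (interval -0.48 to 0.21, adjusted p = 0.479).

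Both partners of Dicer are double-stranded RNA-binding proteins. Prkra (ENSMUSG00000002731, chr2:76629898-76648015, minus strand) encodes PACT, which also activates the kinase PKR. It was at 14.5 CPM in KO ESC C4, 9.41 and 8.73 in both KO ESC 5-3 libraries, 15.9 and 16.3 in WT XEN, 30.3 in KO XEN C4 and 34.2 in KO XEN 5-3. The KO XEN libraries were above all others, and WT XEN above all ES libraries. Over the 7 libraries Prkra spanned 3.91-fold, the widest range of the 9 genes. It was 2.96-fold higher in KO XEN than in KO ESC (1.57 ± 0.25, edgeR adjusted p = 0.000669), a call kept under all 14 alternative settings. Against WT XEN it was 2.0-fold higher (1.0 ± 0.27, edgeR adjusted p = 0.0187). That call was lost when any 1 of WT XEN A, WT XEN B, KO XEN C4 and KO XEN 5-3 was left out, at log2 differences of 0.83 to 1.08. The difference was 1.08 without both C4 libraries. WT XEN was above KO ESC by 0.57 ± 0.25 with an edgeR adjusted p of 0.0759, which passed without both C4 libraries (0.83, 0.00832).

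Tarbp2 (ENSMUSG00000023051, chr15:102518192-102523676, plus strand) encodes TRBP, the other partner of Dicer, which binds PKR and inhibits it. It was at 37.7 CPM in KO ESC C4, 68.1 and 61.7 in both KO ESC 5-3 libraries, 33.3 and 34.5 in WT XEN, 54.1 in KO XEN C4 and 45.9 in KO XEN 5-3. WT XEN was below all other libraries, KO ESC C4 was just above it, and KO XEN lay between KO ESC C4 and KO ESC 5-3. Tarbp2 was 1.65-fold lower in WT XEN than in KO ESC (-0.72 ± 0.25, edgeR adjusted p = 0.0361). This call held in 6 of 14 alternatives, and the edgeR adjusted p rose to between 0.055 and 0.144 without any 1 of the libraries other than KO ESC C4, to 0.0519 with line as a block and to 0.0582 when only these groups were fitted. KO XEN differed from WT XEN by 0.56 (interval -0.07 to 1.19, adjusted p = 0.128) and from KO ESC by -0.16 (interval -0.74 to 0.41, adjusted p = 0.583). Without both C4 libraries the difference from KO ESC was -0.5 with an edgeR adjusted p of 0.0452.

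The CPM ratio of Prkra to Tarbp2 was 0.385 in KO ESC C4, 0.138 and 0.142 in both KO ESC 5-3 libraries, 0.479 and 0.472 in WT XEN, 0.561 in KO XEN C4 and 0.744 in KO XEN 5-3. Every differentiated library was above every ES library, and both KO XEN libraries were above both WT XEN libraries. Per kilobase of exon the ratio was 0.31 to 0.864 in KO ESC, 1.06 to 1.07 in WT XEN and 1.26 to 1.67 in KO XEN. On that scale Prkra was below Tarbp2 in all ES libraries and above it in all differentiated ones, whereas in CPM it was below Tarbp2 in every library. The order in the differentiated libraries thus depends on the exon lengths used, 2028 bases for Prkra and 4549 for Tarbp2. Dicer1 over the sum of Prkra and Tarbp2, in CPM, was 3.96 in KO ESC C4, 2.35 and 2.76 in both KO ESC 5-3 libraries, 2.9 and 3.32 in WT XEN, and 1.69 and 1.75 in KO XEN. The KO XEN libraries were the lowest of the 7.

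**Figure D3:**
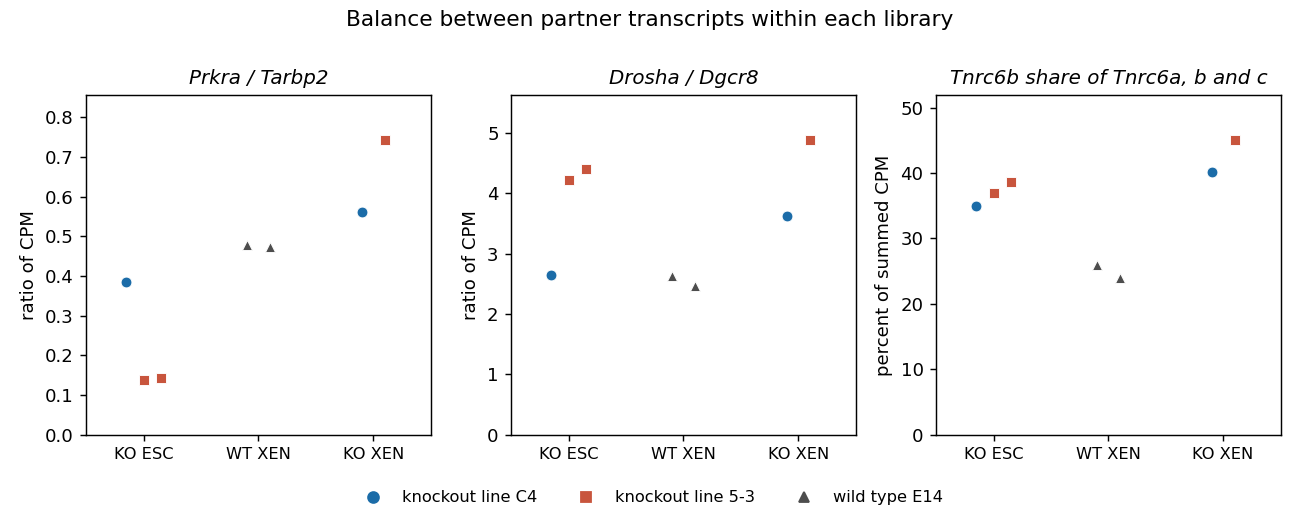
Balance between related genes in each library: the CPM ratio of Prkra to Tarbp2, the CPM ratio of Drosha to Dgcr8, and Tnrc6b as a percent of the summed CPM of Tnrc6a, Tnrc6b and Tnrc6c. Prkra over Tarbp2 is highest in KO XEN (0.561 and 0.744), and the Tnrc6b percent is lowest in WT XEN (25.9 and 23.9).

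The Tnrc6 genes encode the GW182 proteins, scaffolds that bind Argonaute through GW repeats and recruit the CCR4-NOT and PAN2-PAN3 deadenylases. Tnrc6b (ENSMUSG00000047888, chr15:80711313-80941085, plus strand) was at 156 CPM in KO ESC C4, 152 and 168 in both KO ESC 5-3 libraries, 77.0 and 95.2 in WT XEN, 187 in KO XEN C4 and 211 in KO XEN 5-3. WT XEN stood below and KO XEN above all ES libraries, with no overlap. KO XEN was above WT XEN by 1.21 ± 0.16 (interval 0.83 to 1.58, edgeR adjusted p = 0.000879). WT XEN was 1.84-fold below KO ESC (-0.88 ± 0.15, edgeR adjusted p = 0.00133), while KO XEN was above KO ESC by 0.33 (interval -0.01 to 0.66, adjusted p = 0.0751). The difference between KO XEN and WT XEN was called under all 14 alternatives, at 0.99 to 1.36, and without both C4 libraries it was 1.29 (edgeR adjusted p = 0.00673). An exon of Tnrc6b also hosts miR-5113, whose gene model had 0 counts.

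Tnrc6a (ENSMUSG00000052707, chr7:123123885-123195296, plus strand) was at 181 CPM in KO ESC C4, 170.2 and 183 in both KO ESC 5-3 libraries, 164 and 238 in WT XEN, 218 in KO XEN C4 and 201 in KO XEN 5-3. WT XEN A was the lowest and WT XEN B the highest of all 7 libraries, and the fold range over the 7, 1.45, was the narrowest of the 9 genes. No comparison of groups was called: the log2 differences were 0.06 (interval -0.38 to 0.5, adjusted p = 0.83) between KO XEN and WT XEN, 0.23 (interval -0.17 to 0.64, adjusted p = 0.256) between KO XEN and KO ESC, and 0.18 (adjusted p = 0.401) between WT XEN and KO ESC. Without WT XEN A, WT XEN was above KO ESC by 0.45 (edgeR adjusted p = 0.039).

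Tnrc6c (ENSMUSG00000025571, chr11:117654289-117763439, plus strand) was at 108 CPM in KO ESC C4, 89.7 and 84.0 in both KO ESC 5-3 libraries, 56.1 and 64.6 in WT XEN, 61.6 in KO XEN C4 and 55.9 in KO XEN 5-3. All ES libraries were above all differentiated libraries, which overlapped between genotypes. Tnrc6c was 1.6-fold lower in KO XEN than in KO ESC (-0.68 ± 0.16, edgeR adjusted p = 0.00632) and 1.56-fold lower in WT XEN than in KO ESC (-0.64 ± 0.16, edgeR adjusted p = 0.00953), the latter lost without WT XEN A (0.0793). KO XEN and WT XEN differed by -0.04 (interval -0.45 to 0.37, adjusted p = 0.876).

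Of the summed CPM of the 3 Tnrc6 genes, Tnrc6b made up 35.0% in KO ESC C4, 36.9% and 38.6% in both KO ESC 5-3 libraries, 25.9% and 23.9% in WT XEN, 40.1% in KO XEN C4 and 45.1% in KO XEN 5-3. Tnrc6a made up 40.7% to 42.1% in KO ESC, 55.2% and 59.9% for WT XEN, and 46.7% and 42.9% in KO XEN, and Tnrc6c 19.3% to 24.3%, 16.2% to 18.9% and 12.0% to 13.2%. WT XEN therefore had the lowest Tnrc6b and the highest Tnrc6a share of the 3 groups. The sum itself was 412 to 445 CPM in KO ESC, 297 and 398 for WT XEN, and 467 in both KO XEN libraries. These shares compare read numbers, which also depend on transcript length, and not molecules.

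In the undifferentiated state, the ratio of C4 to the mean of both 5-3 libraries was farthest from equal for Drosha and Tarbp2, at lower CPM in C4, and for Prkra, at higher CPM in C4. Over both states, C4 against 5-3 called 0 of 9 genes (edgeR and DESeq2), against 0.0503% of 17887 genes by edgeR, and 1 of 9 had an unadjusted p below 0.05 with either tool. That gene was Drosha, at a log2 difference of -0.63 ± 0.15 (interval -0.99 to -0.26, edgeR adjusted p = 0.243, DESeq2 adjusted p = 0.0633). Between the ES libraries of the lines, taken from a fit of all 7 libraries in which C4 is 1 library and the spread comes from the 5-3 ES pair and the WT XEN pair, the differences were -0.83 ± 0.15 for Drosha, -0.78 ± 0.17 for Tarbp2 and 0.68 ± 0.18 for Prkra, with edgeR adjusted p of 0.141, 0.161 and 0.209.

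In line C4 the log2 ratio of XEN to ES was 0.1 for Drosha, 0.52 for Tarbp2 and 1.06 for Prkra. Against each of its ES libraries, the 5-3 XEN library had ratios of -0.44 and -0.44 for Drosha, -0.57 and -0.43 for Tarbp2, and 1.86 and 1.97 for Prkra. The ratio of Drosha and of Tarbp2 was thus above 0 in C4 and below 0 in 5-3, and that of Prkra was above 0 in both. For the other 6 genes the ratios had the same sign in both lines. The difference of the lines in this change called 0 of 9 genes and 0.0% of all genes with edgeR, and 0 of 9 with DESeq2; an unadjusted p below 0.05 was reached by 2 genes with edgeR and 1 with DESeq2. The edgeR values were 1.02 ± 0.25 (adjusted p = 0.382) for Tarbp2, -0.85 ± 0.29 (0.463) for Prkra and 0.54 ± 0.22 (0.5) for Drosha. With 1 library of each line after differentiation, the test had 2 residual degrees of freedom.

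The rest of the pathway was followed through 60 further genes in 7 lists by function: Microprocessor cofactors, nuclear export, Argonautes, loading and RISC-associated factors, deadenylation, decapping and decay, and turnover of microRNAs and precursors. Between KO XEN and WT XEN, 6 of the 60 were higher, 21 lower and 33 not called, beside 22.3% of all genes higher and 23.9% lower, with a median log2 fold change of -0.23 against 0.0 for all genes. The 6 higher became 2 without KO XEN 5-3, 3 without WT XEN A or with only these groups fitted, and 10 with upper-quartile scaling. They became 4 with no filter on low counts or without any 1 of KO ESC 5-3 (either library), WT XEN B and KO XEN C4. Of 13 deadenylation genes, the effectors that GW182 proteins recruit, 1 was higher and 6 lower. Lin28b, which blocks let-7 maturation, was at 18.9 ± 7.38 CPM in the KO XEN libraries and 2.53 ± 0.451 in those of WT XEN (2.89 ± 0.33, edgeR adjusted p = 0.000495), whereas its paralog Lin28a was at 12.5 ± 6.68 and 223 ± 90.5 (-4.18 ± 0.43, edgeR adjusted p = 0.000347). The helicase gene Mov10 was higher, at 319.6 ± 7.68 against 167 ± 17.7 CPM (0.94 ± 0.17, edgeR adjusted p = 0.00288), as was the decapping enhancer Edc3 at 98.1 ± 9.28 against 59.6 ± 0.922 (0.72 ± 0.14, 0.00464), which shares 22.12% of its exonic bases with Clk3 on the opposite strand. Hsp90aa1, a chaperone used in Argonaute loading, was lower at 119.6 ± 7.98 against 467 ± 59.7 CPM (-1.96 ± 0.17, edgeR adjusted p = 0.00022), and so was the CCR4-NOT subunit gene Cnot9 at 82.7 ± 3.48 against 187 ± 9.39 (-1.18 ± 0.15, 0.000648).

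Against KO ESC, most of the 60 genes were lower in KO XEN, with 40 lower, 6 higher and 14 not called, beside 34.3% of all genes lower and 34.8% higher, and a median of -0.76 against -0.08 over all genes. The mitochondrial share of counts was also lower in KO XEN, as given above, and its part in these counts was not tested. All 4 nuclear export genes and 11 of 13 deadenylation genes were lower, as Xpo5 was. Srsf3, a splicing factor that also helps the Microprocessor, was at 113 ± 11 CPM against 486 ± 22.5 (-2.1 ± 0.16, edgeR adjusted p = 1.53e-05), and Hsp90aa1 at 119.6 against 2794 ± 259 (-4.55 ± 0.19, 1.53e-06), with its cochaperone gene Ptges3 at 65.6 ± 5.63 against 261 ± 14.9 (-1.99 ± 0.16, 1.66e-05). Zswim8, which encodes a ubiquitin ligase adaptor of target-directed microRNA decay, had the largest increase of the 60, at 259 ± 6.58 CPM against 14.4 ± 0.738 (4.17 ± 0.13, edgeR adjusted p = 9.34e-07). Snd1 (1.24 ± 0.16, edgeR adjusted p = 0.000207), a nuclease gene of the silencing complex, and Mov10 (0.98 ± 0.15, 0.000539) were also higher.

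In WT XEN against KO ESC, 28 of the 60 were lower, 7 higher and 25 not called, beside 30.3% of all genes lower and 32.2% higher. The median was -0.41 against -0.03 over all genes. The 7 include Ago2, the gene targeted in the knockout (3.45 ± 1.2, edgeR adjusted p = 0.0352). Zswim8 (3.7 ± 0.13, edgeR adjusted p = 2.34e-06) and Snd1 (1.63 ± 0.16, 7.67e-05) were higher here too, and so was Ago4, at 7.25 ± 3.78 CPM against 0.515 ± 0.169 (3.81 ± 0.45, 0.000213). Hsp90aa1 (-2.58 ± 0.17, edgeR adjusted p = 1.47e-05), Lin28b (-4.33 ± 0.34, 3.05e-05) and the CCR4-NOT subunit gene Cnot10 (-1.69 ± 0.14, 3.96e-05) were lower. Of the deadenylation genes, 5 of 13 were lower. Between the knockout lines Ago2 was the only one of the 60 called.

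**Figure D4:**
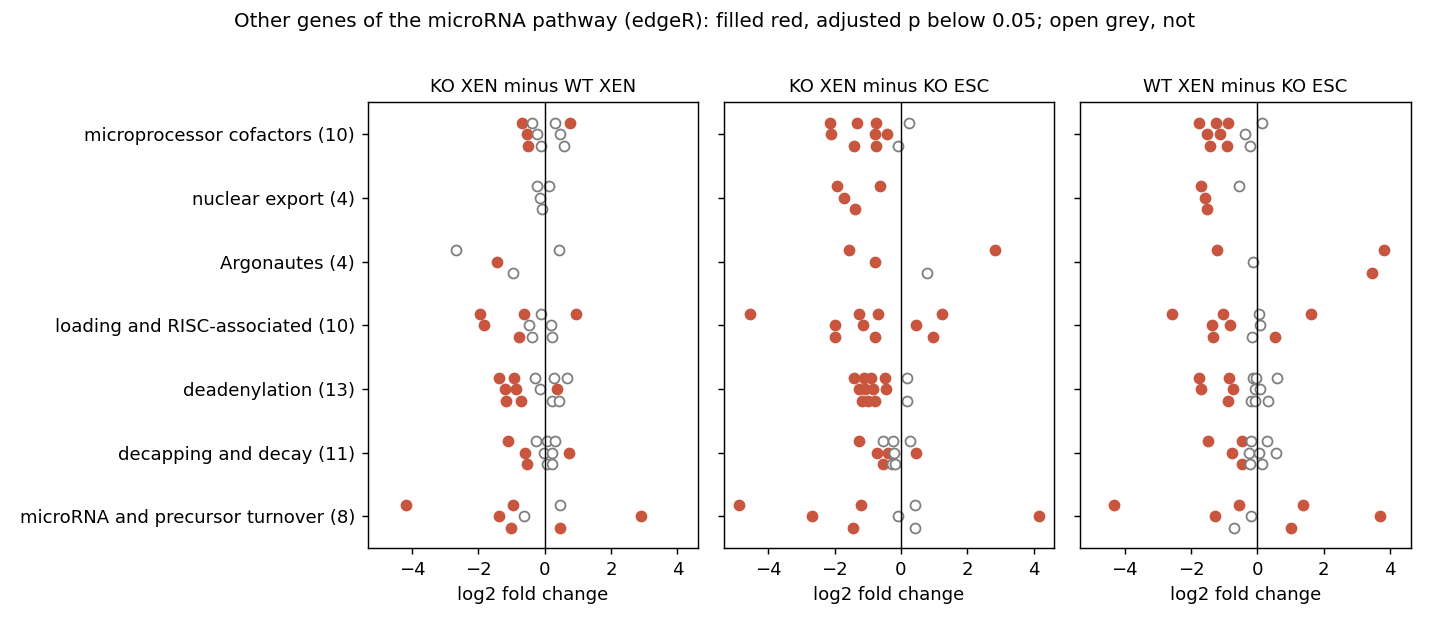
Log2 fold change (one point a gene) of the 60 further pathway genes by functional list in the 3 comparisons of groups, with called genes marked. Most points lie below 0 in KO XEN against KO ESC, where 40 of 60 were called lower and 6 higher.

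Among the Argonautes with which the 9 genes work, Ago1 was at 202, 124 and 135 CPM in KO ESC, 69.2 and 63.5 for WT XEN, and 83.3 and 96.2 in KO XEN, lower in both differentiated groups than in KO ESC (edgeR adjusted p = 0.00221 and 0.015). Ago2, the targeted gene, was not called between KO XEN and WT XEN (-2.66, interval -5.8 to 0.48, edgeR adjusted p = 0.145). Its KO XEN libraries were far apart, at 122 CPM in C4 and 9.94 in 5-3. Ago3 was at 47.4, 29.3 and 37.5 CPM in KO ESC, 27.4 and 42.1 for WT XEN, and 14.6 and 11.1 in KO XEN. In KO XEN it was below WT XEN by a log2 change of -1.44 ± 0.31 (edgeR adjusted p = 0.00637) and below KO ESC by -1.58 ± 0.29 (0.00158). Ago4, higher in WT XEN than in KO ESC as given above, was also higher in KO XEN than in KO ESC. It was at 3.69 ± 0.219 against 0.515 ± 0.169 CPM (2.84 ± 0.45, edgeR adjusted p = 0.000732).

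For each of the 9 genes, the gene with the most similar profile was sought among 9792 protein-coding genes that averaged 10 CPM or more, by the root mean square difference of log2(CPM + 0.5) centred over the 7 libraries. The nearest was Ywhaz for Drosha (0.081), Gon4l for Dgcr8 (0.0595), Ramac for Dicer1 (0.0424), Ctdp1 for Xpo5 (0.0473) and Eef1akmt1 for Tarbp2 (0.0883). It was Mapkbp1 for Prkra (0.071), Crebbp for Tnrc6a (0.0546), Naa35 for Tnrc6b (0.111) and Commd1 for Tnrc6c (0.0597). None of the 9 had another of the 9 as its nearest gene. Within the set, Dgcr8 and Dicer1 were nearest to each other, at a difference of 0.116, Tnrc6c was nearest to Dicer1, at 0.156, and Drosha and Tarbp2 were nearest to each other, at 0.167. Prkra was farthest from the others, with Tnrc6a nearest at 0.604.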

How the data were processed

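The values deposited by the authors are raw read counts per Ensembl gene, as whole numbers, for 7 libraries. Per the submitters' processing notes, STAR 2.4.2a, featureCounts 1.4.5-p1 and mm10 were used. Libraries were reverse-stranded per the labels' protocols, while the strand setting, annotation and multi-mapping rule of the counting are not given in the sources used here. Counts of genes that overlap others, such as Dgcr8, are therefore uncertain.

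Symbols came from GENCODE M21 (42548 of 43629 IDs matched). The counts of all 7 libraries entered 1 edgeR 4.0.16 quasi-likelihood fit (R 4.3.3, limma 3.58.1) with 3 groups, TMM scaling and filterByExpr, with 4 residual degrees of freedom. Genes were called at a Benjamini-Hochberg adjusted p below 0.05 over 18426 genes. The line difference used the 5 knockout libraries (17887 genes), and its interaction with differentiation 5 groups. Intervals are 95% and CPM uses TMM-scaled sizes. The scripts were run on simulated counts with few genes changed, to check the direction of called changes. That run is no measure of false calls where as many genes differ as here. The members and lists were chosen with earlier results of these data known. Named were the 9 genes, Ago1 to Ago4, up to 3 pathway genes by adjusted p in each direction, and the nearest profile of each member. Alternatives were other scaling, no filter, DESeq2 1.42.0, libraries left out, line as a block, and fits of only the groups compared.

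The 5-3 ES libraries were compared to see if they were 1 library deposited more than once. Their counts differed by a chi-square per gene (1 degree of freedom) with a mean of 25.5 and a median of 3.0, above sampling noise. The median was 16.9 for the WT XEN pair, 5.15 for the KO XEN pair and 19.7 for KO ESC C4 against the first 5-3 ES library. This measure grows with the depth of the libraries, and KO XEN C4 was the shallowest, so the medians of the pairs do not rank their likeness. The comparison of the 5-3 ES libraries cannot tell separate cultures from separate preparations of 1 culture. The replicate pairing rests on the labelled line, shared by KO ESC and KO XEN.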

Additional observations from a re-analysis of the deposited data

How the results depend on the processing

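With 1 library left out at a time, the number of the 9 genes called ranged from 1 to 4 for KO XEN against WT XEN (2 with all libraries), 3 to 7 for KO XEN against KO ESC (5), 3 to 6 for WT XEN against KO ESC (5) and 0 to 3 for line C4 against 5-3 (0). The 3, called with either KO XEN library left out, were Drosha, Tarbp2 and Prkra, at log2 differences of -0.82, -0.78 and 0.68. The line difference then rests on the ES libraries, of which 1 is C4. In those fits the share of all genes called also rose, far above the 0.0503% of the full fit. With no filter on low counts the line difference called 1, Drosha (edgeR adjusted p = 0.0486), beside 1.38% of all genes. The counts of calls moved by over 1.5 times without KO ESC C4 (4), WT XEN A, WT XEN B, KO XEN C4 or KO XEN 5-3 (1 each) for KO XEN against WT XEN, without KO XEN 5-3 (3) for KO XEN against KO ESC, and without either 5-3 ES library or either WT XEN library (3 each) for WT XEN against KO ESC. In each of these settings the share of all genes called moved in the same direction as the count. For KO XEN against WT XEN it was 52.0% without KO ESC C4, against 46.2% with all libraries. The genes added there were Dgcr8, called lower, and Tarbp2, called higher (edgeR adjusted p = 0.049 and 0.0278). Without KO ESC C4 the line difference was 0.16 for Tarbp2 and -0.25 for Prkra. In the comparisons of groups, signs turned only for differences that were not called. For KO XEN against WT XEN, Xpo5 was -0.04 with no filter, -0.03 without both C4 libraries and -0.0084 with only these groups fitted, and -0.06 to 0.05 with 1 library left out. Tnrc6a was -0.01 with no filter, -0.0017 without both C4 libraries and -0.26 to 0.34 with 1 left out, and Tnrc6c 0.02 with upper-quartile scaling and -0.22 to 0.06 with 1 left out. For WT XEN against KO ESC, Tnrc6a was -0.001 with upper-quartile scaling and -0.11 to 0.45 with 1 left out. Upper-quartile scaling moved the median of all genes to -0.19 and -0.2 in the comparisons with KO ESC (-0.08 and -0.03 with TMM), and Dgcr8 and Dicer1 were then also called lower in WT XEN (edgeR adjusted p = 0.0434 and 0.0118). With line as a replicate block the 3 comparisons called 2, 5 and 4 of the 9 genes, beside 48.1%, 70.0% and 63.5% of all genes. The block ended only the Tarbp2 call given above. The pathway totals (27, 46 and 35 of 60 called) stayed within 1.5 times, at 18 to 33, 35 to 47 and 31 to 37 with 1 library left out and 29, 46 and 36 with the block, unlike the genes higher in KO XEN than in WT XEN given above. The 6 higher in KO XEN than in KO ESC became 4 to 7. Over all genes, the line difference called 8 higher and 1 lower with edgeR, 214 and 160 with no filter, and 254 and 155 with DESeq2, and the interaction called 0 with edgeR and 66 higher and 123 lower with DESeq2. The causes were not tested. KO XEN rests on 2 libraries, of which C4 is the shallowest. With these numbers of libraries, a gene that was not called may still differ by an amount within its interval.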
